A study of Felis catus with 25 samples.

Results

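Cat corneal fibroblasts treated with UK-5099 were compared with the same cells treated with troglitazone plus GW9662, both at day 5 of the study. The comparison rested on 10 of the study's 25 RNA-seq libraries, 5 whose titles name UK-5099 and 5 whose titles name the drug pair. Cells of both groups had first received TGFb1, a cytokine that turns fibroblasts into contractile myofibroblasts, for 2 days. The labels give its dose, 1 ng/ml, only for the study's group harvested after those 2 days. TGFb1 was then removed and drug was given for 3 days, either UK-5099 at 30 uM, or troglitazone at 7.5 uM together with GW9662 at 10 uM (called the combination here). The study's other groups, each of 5 libraries, were untreated cells at day 0, cells after 2 days of TGFb1, and cells given troglitazone alone at 7.5 uM on the same schedule. They enter as levels set beside a result and through the shared fit of all 25 libraries, which sets the filter, scaling and spread. Troglitazone alone was also tested against the combination. Cells at day 5 without any drug were not analysed here. A level that was higher with UK-5099 can therefore not be told apart from one that was lower with the combination. The labels call the 5 libraries of each group biological replicates but do not tie them to separate cultures or donors, so p-values here speak only of the spread among the libraries, which may be technical.

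The mitochondrial pyruvate carrier, a pair of inner membrane proteins encoded by MPC1 and MPC2, brings the end product of glycolysis into mitochondria, and UK-5099 is a small molecule that blocks it. Troglitazone is a thiazolidinedione, a class that activates the nuclear receptor PPAR-gamma and is also known to act on the pyruvate carrier. GW9662 binds the receptor covalently and prevents its activation. In the injured cornea, fibroblasts derived from the quiescent keratocytes of the stroma become myofibroblasts that carry alpha-smooth muscle actin, deposit disordered matrix and scatter light. The comparison thus set a direct carrier inhibitor beside a thiazolidinedione given with a receptor antagonist, at doses that are not matched.

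Library totals ran from 14.8 M to 25.2 M counts with UK-5099 and from 17.6 M to 20.9 M with the combination. The 10 most abundant genes took 22.7% ± 3.76 (SD, n = 5) of the counts with UK-5099 and 8.56% ± 0.452 (SD, n = 5) with the combination. An exact permutation test, two-sided, gave p = 0.00794, the smallest the design allows. UK-5099 replicate 5 stood apart from the other libraries of its group. Its log2 levels correlated with those of the other 4 at r = 0.852 to 0.868 across genes, which are not independent replicates. Those 4 correlated among themselves at 0.991 to 0.994, and the combination libraries at 0.988 to 0.995. Set against the mean of the others among them, UK-5099 replicates 1 to 4 had 0.879% to 1.65% of tested genes more than 2-fold apart. Replicate 5 had 53.4% of the tested genes more than 2-fold from the mean of replicates 1 to 4. That deviation followed the length of the gene on the chromosome: from the quartile of genes with the shortest span to the quartile with the longest, the median log2 deviation of replicate 5 was 0.89, 0.24, -0.32 and -1.1. Counts of called genes and of list members are therefore given with all 10 libraries and again without this one. Single genes are given both ways or with all 10 libraries alone. Counts of genes without overlap are of all 10 libraries. Without replicate 5 the 10 most abundant genes took 24.3% ± 1.19 (SD, n = 4) of the UK-5099 counts.

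**Figure D1:**
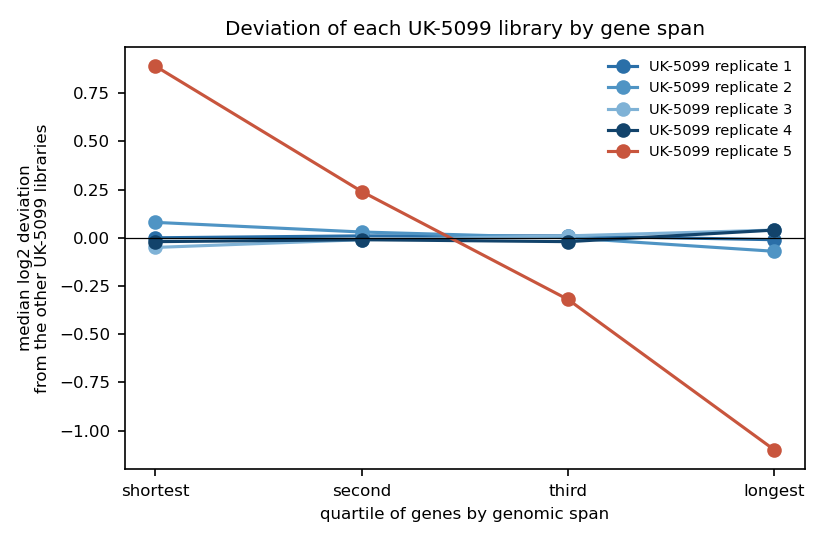
Median log2 deviation of each UK-5099 library from the mean of UK-5099 replicates 1 to 4, itself left out (y axis), for genes in quartiles of genomic span from shortest to longest (x axis). Replicates 1 to 4 stay between -0.07 and 0.08, and replicate 5 goes from 0.89 in the shortest quartile to -1.1 in the longest.

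The cells carried fibroblast transcripts in every library. COL1A1, which encodes a chain of type I collagen, lay between 49593 and 79727 CPM (TMM-scaled, as are all CPM values here) with UK-5099 and between 589 and 1339.6 CPM with the combination, and the stromal proteoglycan gene DCN between 978 and 1327 and between 172 and 264 CPM. THY1, a surface marker of activated fibroblasts, was near the detection floor in both groups, with 9 counts in all UK-5099 libraries together and 43 in the combination libraries, and KERA and VIM were not analysed here. Among markers of other cell types, KRT3, KRT12 and PTPRC had no count in either group, CDH5 had 1 and 4 counts with UK-5099 and the combination, SOX10 1 and 8, and ADIPOQ 0 and 1. FLT1, a vascular marker like CDH5, was however at means of 106 and 32 CPM with UK-5099 and the combination. The corneal endothelial transporter gene SLC4A11 had 131 and 270 counts (0.457 to 1.9 and 1.69 to 2.46 CPM), and the epithelial gene PAX6 had 1 and 271. A count of 0 over a group of 5 libraries allows up to 0.0329 CPM with UK-5099 and 0.023 CPM with the combination (3 counts over the group; counting error only).

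Of 10699 genes tested, 7277 differed between the treatments (68%; edgeR quasi-likelihood test, Benjamini-Hochberg adjusted p under 0.05), 3523 higher with UK-5099 (32.9%) and 3754 higher with the combination (35.1%). A change of at least 2-fold was reached by 1797 of the former and 1867 of the latter. Without UK-5099 replicate 5, 8796 of 10798 genes differed (81.5%), 3986 higher with UK-5099 (36.9%) and 4810 lower (44.5%). The 5 libraries of one group did not overlap the 5 of the other for 5535 genes (51.7%), with UK-5099 above in 2409 (22.5%) and below in 3126 (29.2%). Of the genes tested both ways, 6986 were called in the same direction with and without that library, 2 in opposite directions, 289 only with it and 1734 only without it. Among the genes at least 2-fold apart in replicates 1 to 4, replicate 5 lay on the same side of the combination mean for 1198 of the 1441 higher genes and 1722 of the 1864 lower ones. With so many genes called, a list with shares near 32.9% and 35.1% is at the background. Lists near it include those of matrix proteases, TGF-beta signalling, mitochondrial carriers and PPAR-gamma responsive genes. Members named from such lists are single genes, not a result about the list. The scaling mattered for this split: with library totals alone in place of TMM, the median of all genes moved from -0.032 to -0.655 on the log2 scale and the calls became 1669 higher and 6528 lower. Without replicate 5 that scaling gave 1884 higher and 7623 lower (median -0.659). Counts of a list by library totals alone are to be read against these splits, not against 32.9% and 35.1%. Those without replicate 5 on the TMM scale are to be read against 36.9% and 44.5%. All log2 differences below are UK-5099 minus the combination on the TMM scale, so they are relative to the bulk of genes.

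Genes of the myofibroblast and contractile list were mostly higher with UK-5099. Of 26 tested genes of that list, 22 were higher with UK-5099 and 3 lower (median log2 difference 2.86), or 17 and 4 by library totals alone. Without replicate 5 they numbered 23 and 3 (median 3.04). ACTA2, which encodes alpha-smooth muscle actin, stood at 3235, 2305, 2848, 2696 and 5958 CPM in UK-5099 replicates 1 to 5 and at 29.5, 5.85, 1.75, 2.19 and 7.66 CPM in the combination libraries. The lowest UK-5099 library was thus far above the highest combination library, and replicate 5 was the highest of all (log2 difference 8.51, SE 0.636, edgeR adjusted p = 3.62e-11; 8.21 without replicate 5). The cardiac actin ACTC1 ran from 965 to 2531 CPM and from 4.26 to 20.5 CPM (log2 difference 7.66, 7.48 without replicate 5). The actin genes are near-identical over much of their length, so reads may have been split among ACTA2, ACTC1 and ACTG2 and their separate values are uncertain. Tropomyosin TPM1, which lies along actin filaments, measured 5463, 4819, 5473, 5010.1 and 7183 CPM with UK-5099 and 239.6, 157, 120.5, 136 and 171 CPM with the combination (log2 difference 5.09, SE 0.176, edgeR adjusted p = 5.15e-17; 4.98 without replicate 5). LMOD1, a nucleator of smooth muscle actin filaments, had means of 66.7 ± 7.86 and 0.892 ± 0.513 CPM, and calponin CNN1 79.1 ± 18.5 and 9.46 ± 0.756 CPM (SD, n = 5 each), with edgeR adjusted p values of 1.98e-15 and 2.45e-15. The periostin gene POSTN, a matrix protein of activated fibroblasts, was at 1267 and 31.2 CPM (log2 difference 5.35, 5.4 without replicate 5). Desmin DES and the Z-disc gene LDB3 went the other way, at means of 0.0578 and 0.0386 CPM with UK-5099 and 1.98 and 1.01 CPM with the combination. In bulk RNA, fewer cells of one kind and less RNA per cell cannot be told apart.

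Set beside the other groups, the ACTA2 mean was 1942 CPM in untreated cells at day 0, 9003 after TGFb1 and 269.9 with troglitazone alone. The UK-5099 mean of 3408 CPM lay between the first and second of these values, and the combination mean of 9.38 CPM lay below all of them. In the test of the combination against troglitazone alone, which shares the combination libraries with the main comparison, 4620 of 10699 genes differed (43.2%), and ACTA2 had a log2 difference of -4.85 (edgeR adjusted p = 1.21e-07).

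**Figure D2:**
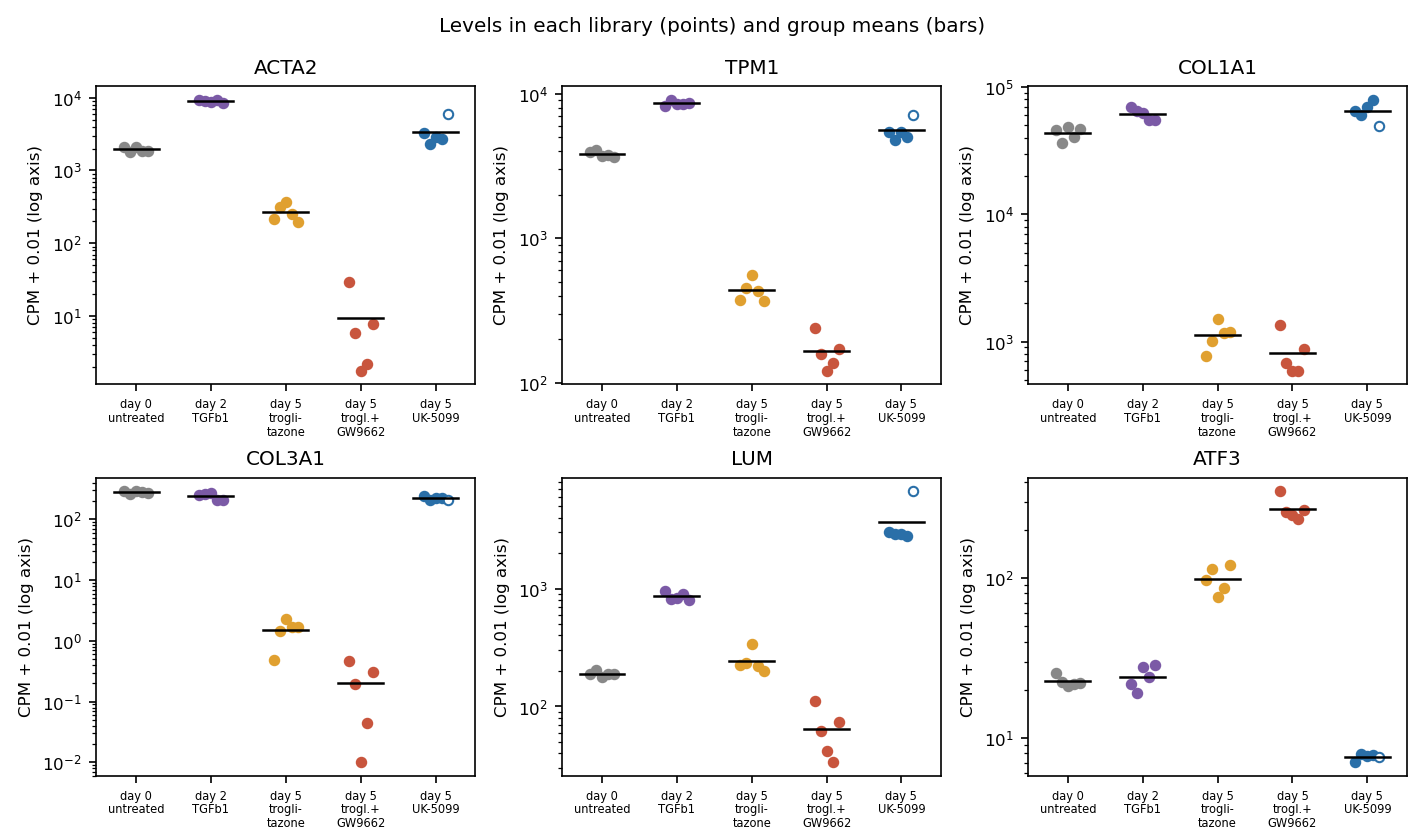
Level of 6 genes in each library (y axis, TMM-scaled CPM on a log axis, with 0.01 added so that 0 can be drawn; points are libraries, bars are group means; UK-5099 replicate 5 is the open point) for the 5 groups of the study (x axis). For ACTA2, TPM1, COL1A1, COL3A1 and LUM all 5 UK-5099 libraries lie above all 5 combination libraries, and for ATF3 all lie below.

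Nearly all collagen genes were higher with UK-5099. Of 19 tested collagens, 18 were higher with UK-5099 and 1 lower (median log2 difference 2.36), or 16 and 1 by library totals alone. Leaving out replicate 5 gave 18 and 1 (median 2.55). Type I collagen COL1A1 measured 65072, 60622, 70108, 79727 and 49593 CPM with UK-5099 and 1339.6, 681, 589, 589 and 875 CPM with the combination (log2 difference 6.32, SE 0.256, edgeR adjusted p = 6.27e-16; 6.41 without replicate 5). Its mean was 61379.7 CPM after TGFb1 and 1130 CPM with troglitazone alone. Type III collagen COL3A1 stood at 242, 210, 228, 226 and 207 CPM with UK-5099 and at 0.46, 0.185, 0, 0.0347 and 0.296 CPM with the combination, where 1 library had no count (log2 difference 10.13, SE 0.399, edgeR adjusted p = 4.05e-16; 10.17 without replicate 5). Both genes gave UK-5099 values close to those of TGFb1-treated cells, whose COL3A1 mean was 240.3 CPM. In untreated cells at day 0, COL1A1 and COL3A1 already averaged 43666 and 278 CPM. UK-5099 was not tested here against either of these groups. COL11A1, which sets fibril diameter, was at 260.1, 188, 239.8, 231 and 95.3 CPM with UK-5099 against 0.243 to 0.843 CPM (log2 difference 8.58, 8.77 without replicate 5). Its day-0 mean was 0.11 CPM. COL15A1, a basement membrane zone collagen, had means of 192 ± 20.2 and 22.8 ± 8.32 CPM (SD, n = 5 each). The single collagen in the opposite direction was the low-abundance COL24A1, at means of 0.287 and 1 CPM.

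Genes of collagen folding and crosslinking, not all of them enzymes, mostly moved with the collagens. Of 25 tested genes, 21 were higher with UK-5099 and 1 lower (median log2 difference 1.76), or 19 and 4 by library totals alone. The 4 other UK-5099 libraries gave 21 and 4 (median 1.52). SPARC, a collagen-binding glycoprotein, was at 31492 to 48385 CPM with UK-5099 and 341 to 822 CPM with the combination (log2 difference 6.14, SE 0.23, edgeR adjusted p = 2.09e-16; 6.02 without replicate 5). The collagen chaperone SERPINH1 measured 1538 ± 113 and 209 ± 46.5 CPM, and the prolyl hydroxylases P3H2 and P4HA2 had log2 differences of 2.21 and 2.15. LOX, the oxidase that crosslinks fibrils, was at 5911, 4215, 5404, 4959 and 1819.7 CPM with UK-5099, where replicate 5 was the lowest, and at 79.6 to 293 CPM with the combination. The exception that passed the test with all libraries was the lysyl hydroxylase PLOD2, which was lower with UK-5099 (80.3, 64.3, 85, 82.9 and 74.5 against 146, 163, 152, 136 and 167 CPM; log2 difference -0.98, SE 0.0909, edgeR adjusted p = 1.59e-09; -0.96 without replicate 5).

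Matricellular and adhesive glycoproteins were also mostly higher with UK-5099: of 30 tested genes, 25 were higher with UK-5099 and 2 lower (median log2 difference 2.37), or 21 and 3 by library totals alone. These counts became 26 and 2 without replicate 5 (median 2.21). The elastic fibre genes FBLN5, EFEMP2 and FBLN1 had log2 differences of 4.8, 4.49 and 3.23 (4.66, 4.14 and 3.15 without replicate 5). Fibronectin FN1 was at 44295, 46465, 49709, 55440.2 and 11691 CPM with UK-5099 and 14984, 7403, 6156, 5656 and 9130.3 CPM with the combination. Its UK-5099 replicate 5 value fell below combination replicate 1 and above the other combination libraries. The groups thus overlapped only through that pair of libraries (log2 difference 2.26, SE 0.293, edgeR adjusted p = 3.67e-07; 2.5 without UK-5099 replicate 5). Osteopontin SPP1 was the opposite case, at 273, 207, 229.8, 165 and 623 CPM with UK-5099 and 6005, 6367, 7828, 6068 and 6103 CPM with the combination. All 5 combination libraries were above all UK-5099 libraries (log2 difference -4.43, SE 0.263, edgeR adjusted p = 5.62e-13; -4.88 without replicate 5), and the TGFb1 and troglitazone-alone means were 3752 and 2266 CPM.

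Genes of the keratocyte list, among them small leucine-rich proteoglycans that organise the corneal stroma, were mostly higher with UK-5099: of 14 tested, 11 were higher with UK-5099 and 1 lower (median log2 difference 2.75), or 10 and 3 by library totals alone. With replicate 5 left out, 10 and 3 were called (median 2.39). Lumican LUM measured 3032, 2927, 2885, 2784 and 6716 CPM with UK-5099 and 112, 62.3, 41.9, 33.5 and 74.5 CPM with the combination (log2 difference 5.82, SE 0.316, edgeR adjusted p = 1.1e-13; 5.49 without replicate 5). The UK-5099 mean of 3669 CPM was above those of all other groups, which were 189 CPM at day 0, 859 after TGFb1 and 243 with troglitazone alone. Decorin DCN, at 1151 ± 136 and 218 ± 33.1 CPM, and podocan PODN, at 44.6 ± 10.7 and 4.18 ± 0.859 CPM (SD, n = 5 each), went the same way. Osteomodulin OMD had the largest positive log2 difference under the naming rule, with 83.8, 66.1, 78.3, 74.5 and 11.6 CPM against a single combination library with any count (0.23 CPM; log2 difference 10.24, SE 0.753, edgeR adjusted p = 2.66e-11; 10.52 without replicate 5). Asporin ASPN (log2 difference 8.43) and osteoglycin OGN lie beside OMD, all within the span of CENPP, so their counts are uncertain where strand was not used. OGN had 712 counts with UK-5099 and 3 with the combination, a ratio of 340 (95% counting interval 116 to 1653). Angiopoietin-like ANGPTL7 was the keratocyte gene called in the other direction, with overlapping groups (2.5 and 4.09 CPM).

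Matrix proteases were split. Of 27 tested metalloproteinases, related proteases and inhibitors, 11 were higher with UK-5099 and 11 lower (median log2 difference 0.27), or 9 and 12 by library totals alone. Replicates 1 to 4 alone gave 14 and 11 (median 0.37). TIMP2, an inhibitor, measured 1009, 961, 994, 979 and 2232 CPM with UK-5099 and 144 to 174 CPM with the combination, and the urokinase gene PLAU had a log2 difference of 2.77. ADAMTS4 and ADAMTS1, proteases that cleave proteoglycans, were higher with the combination. ADAMTS4 stood at 0.602, 0.735, 0.514, 1.22 and 1.01 CPM with UK-5099 and 20.8, 31.3, 32.8, 32.1 and 34 CPM with the combination (log2 difference -5.21, SE 0.2, edgeR adjusted p = 3.06e-16; -5.25 without replicate 5), and ADAMTS1 had means of 15.7 ± 4.49 and 194 ± 20.7 CPM. ADAMTS15, of the same family, went strongly the other way (70.4, 45.9, 62.7, 79.7 and 81.5 against 0.139 to 0.345 CPM; log2 difference 8.22).

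TGF-beta pathway genes were divided, near the split over all genes: of 39 tested, 10 were higher with UK-5099 and 15 lower (median log2 difference -0.08), or 7 and 26 by library totals alone. In the fit without replicate 5 the counts were 14 and 19 (median -0.09). The type II receptor TGFBR2 measured 1712, 1636, 1736, 1694 and 1488 CPM with UK-5099 and 344, 363, 365, 341 and 346 CPM with the combination (log2 difference 2.23, SE 0.0638, edgeR adjusted p = 2.61e-18; 2.27 without replicate 5), and the co-receptor ENG followed it at 183 and 48.4 CPM. The transcriptional repressor TGIF1 (log2 difference -1.85), the ligand BMP2 (-3.76) and the BMP-induced ID2 (-4.65) were higher with the combination. Mechanosensitive genes leaned to UK-5099: of 25 tested, 17 were higher with UK-5099 and 2 lower (median log2 difference 0.72), or 10 and 6 by library totals alone. Without replicate 5 they numbered 20 and 3 (median 0.91). ANKRD1, a YAP and SRF target, was at 30.2, 17.5, 31, 31 and 74.1 CPM with UK-5099 and at most 0.333 CPM with the combination, but its TGFb1 mean was 1870.5 CPM. CCN1 and CAVIN1 had log2 differences of 2.27 and 2.06 (2.08 and 1.81 without replicate 5). FOSL1 and AMOTL1 were lower at -2.41 and -0.82 (-2.29 and -0.75 without it). Of 27 tested focal adhesion and integrin genes, 16 were higher with UK-5099 and 8 lower (median log2 difference 0.42), or 8 and 12 by library totals alone. Leaving out replicate 5 gave 18 and 8 (median 0.49). The laminins LAMB2 (2.55) and LAMA4 (2.7) were higher with UK-5099, and the integrin ITGA8 (-2.07) and paxillin PXN (-0.75) lower.

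**Figure D3:**
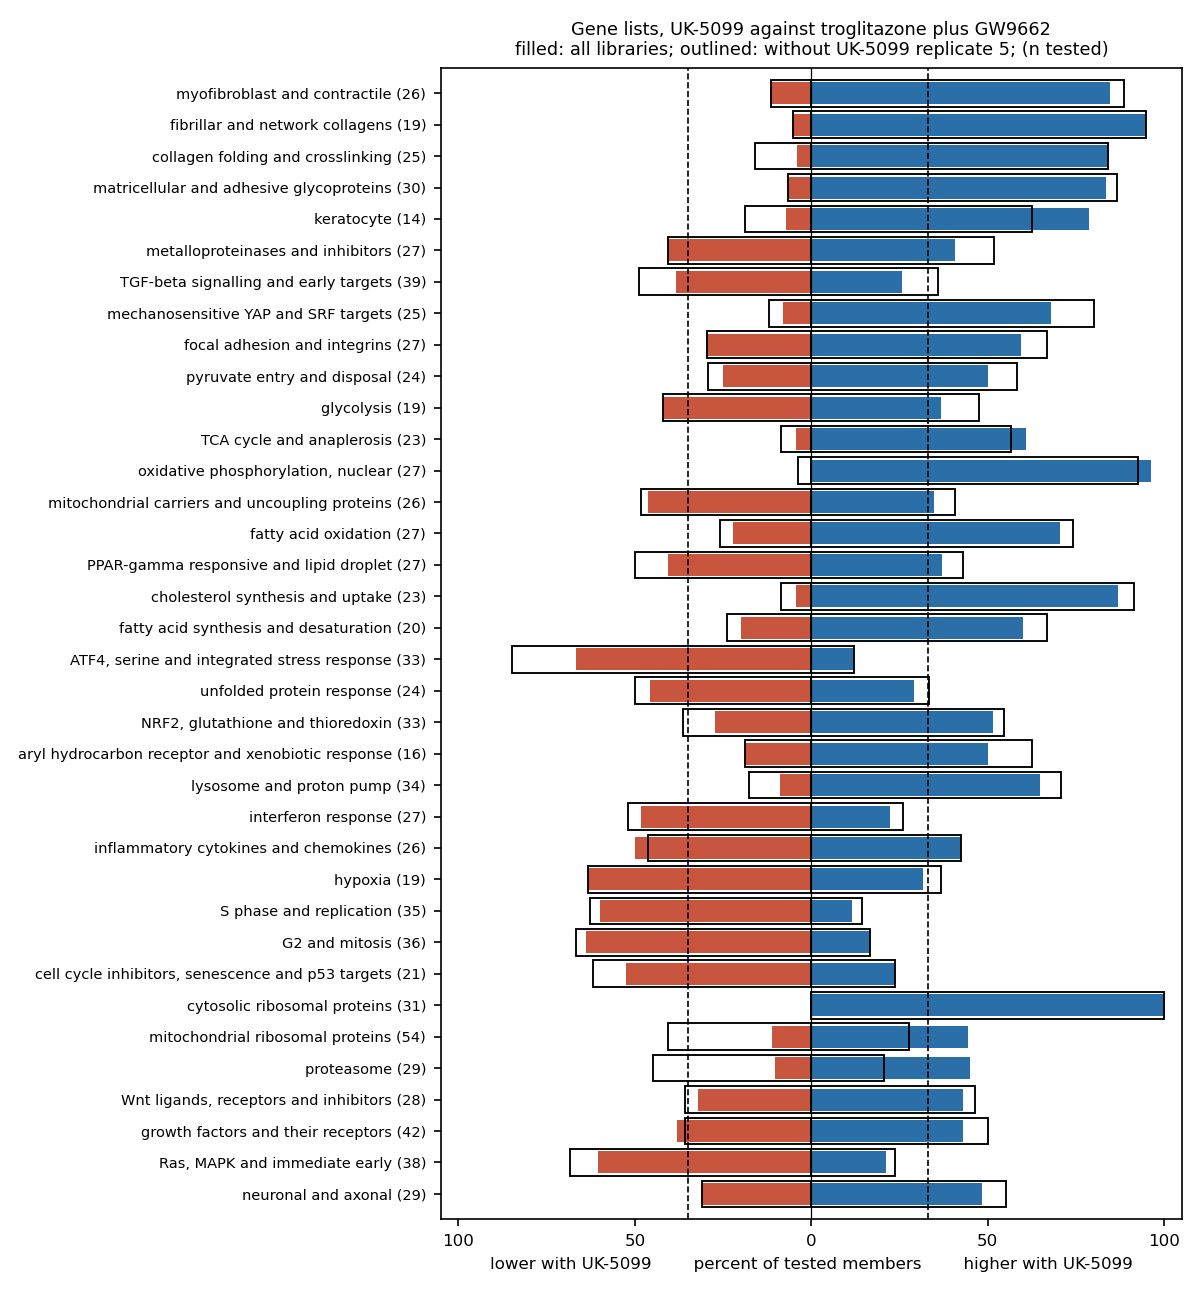
Share of the tested members of each gene list, apart from the marker lists of other cell types, that were higher (right) or lower (left) with UK-5099 than with the combination at an adjusted p under 0.05 (x axis, percent of tested members), with all libraries (filled bars) and without UK-5099 replicate 5 (outlined bars); dashed lines mark the shares over all tested genes, 32.9% higher and 35.1% lower. The dashed lines are those of all libraries. Without replicate 5 the shares over all tested genes were 36.9% higher and 44.5% lower (not drawn). Among the filled bars, cytosolic ribosome, oxidative phosphorylation, collagen, cholesterol and contractile genes reach farthest to the right and ATF4 and mitosis genes to the left. For the mitochondrial ribosome and the proteasome the longer bar changes sides without replicate 5, where all tested genes also lean to the left.

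The drug targets themselves were measured as follows. MPC1 stood at 31.6, 32.5, 32.2, 31.6 and 75.8 CPM with UK-5099 and at 20.6, 21.7, 21.7, 18.7 and 23.6 CPM with the combination (log2 difference 0.93, SE 0.176, edgeR adjusted p = 6.2e-05; 0.6 without replicate 5). MPC2 stood at 47.4, 48.7, 45.6, 45.9 and 266 and 31.5, 31.2, 32.9, 30.7 and 33.8 CPM, again without overlap (log2 difference 1.5, SE 0.35, edgeR adjusted p = 0.000633; 0.56 without replicate 5). For both genes 4 UK-5099 libraries agreed closely and replicate 5 was far higher, and with library totals alone the difference of MPC1 was 0.26 (edgeR adjusted p = 0.0913) and, without replicate 5, that of MPC2 was -0.02. MPC2 also overlaps DCAF6, so its counts are uncertain. PPARG, which encodes PPAR-gamma, had no count in any UK-5099 library and 65 in the 5 combination libraries (0.23, 1.04, 0.399, 0.312 and 0.508 CPM). It was at least 15.1-fold higher with the combination, at least 13.3-fold without replicate 5, but under the level needed for testing in either group, and it was listed at 0 in the troglitazone-alone libraries.

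Genes for the entry and disposal of pyruvate were divided. Of 24 tested, 12 were higher with UK-5099 and 6 lower (median log2 difference 0.2), or 7 and 13 by library totals alone. The 4 other UK-5099 libraries gave 14 and 7 (median 0.22). Acetyl-CoA synthetase ACSS2, which makes cytosolic acetyl-CoA from acetate, was at 304, 288, 321, 299 and 226 CPM with UK-5099 and 85.1, 72.1, 64.2, 64.1 and 73.8 CPM with the combination (log2 difference 2, SE 0.0912, edgeR adjusted p = 4.49e-15; 2.08 without replicate 5). The mitochondrial malic enzyme ME3, a route to pyruvate from malate inside the matrix, had means of 63.3 ± 10.7 and 29.7 ± 1.49 CPM, and DLD, a subunit shared with pyruvate dehydrogenase, had a log2 difference of 0.75 that did not pass with library totals alone (0.11, edgeR adjusted p = 0.14). PDK4, a kinase that switches pyruvate dehydrogenase off and a PPAR target, went the other way at 0.493, 0.196, 0.463, 0.406 and 0.366 and 4.02, 3.55, 2.99, 3.65 and 4.4 CPM. Its groups did not overlap (log2 difference -3.26, SE 0.234, edgeR adjusted p = 1.78e-11; -3.24 without replicate 5), and its mean with troglitazone alone was 4.01 CPM, with a log2 difference of -0.11 between the combination and troglitazone alone (edgeR adjusted p = 0.664). The lactate exporter SLC16A3 was also lower with UK-5099, at 30.9 against 98.8 CPM (log2 difference -1.68, -1.65 without replicate 5), although it overlaps CSNK1D.

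Glycolysis as a list did not lean to one side: of 19 tested, 7 were higher with UK-5099 and 8 lower (median log2 difference 0.16), or 2 and 11 by library totals alone. These counts became 9 and 8 without replicate 5 (median 0.13). LDHA, which converts pyruvate to lactate, measured 1002, 880.4, 919, 939.9 and 1585 CPM with UK-5099 and 1135, 1035, 972, 958 and 1088 CPM with the combination. The groups overlapped, and the difference of 0.04 did not pass the test (edgeR adjusted p = 0.792; -0.14 without replicate 5, adjusted p = 0.0562). Both means were far below the day-0 mean of 7374 CPM and the TGFb1 mean of 6868 CPM. PFKFB3, which makes the activator of phosphofructokinase, was lower with UK-5099, at 25.7, 27.2, 28.6, 30.9 and 13.4 against 187, 159.8, 153, 156 and 187 CPM (log2 difference -2.74, SE 0.155, edgeR adjusted p = 2.29e-13; -2.58 without replicate 5). TXNIP, a glucose-responsive brake on glucose uptake, was higher, at 612, 526, 559, 591 and 762 against 64.4, 85.8, 88.9, 94.6 and 96.5 CPM (log2 difference 2.83, SE 0.128, edgeR adjusted p = 4.22e-15; 2.74 without replicate 5).

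Tricarboxylic acid cycle genes leaned to UK-5099: of 23 tested, 14 were higher with UK-5099 and 1 lower (median log2 difference 0.39), or 4 and 8 by library totals alone. With replicate 5 left out, 13 and 2 were called (median 0.39). SUCLA2 (log2 difference 0.94) and IDH3A (0.66) were among the higher, each by about the same amount without replicate 5 (0.9 and 0.69), but IDH3A did not pass with library totals alone (0.04, edgeR adjusted p = 0.626). Glutamine synthetase GLUL was the single lower gene with all libraries, at 198, 214, 193, 180.5 and 291 CPM with UK-5099 and 663, 1022, 1159, 1108 and 938 CPM with the combination (log2 difference -2.18, SE 0.127, edgeR adjusted p = 4.07e-13; -2.31 without replicate 5). Nuclear genes of oxidative phosphorylation were nearly all higher: of 27 tested, 26 were higher with UK-5099 and 0 lower (median log2 difference 1.28), or 11 and 0 by library totals alone. Replicates 1 to 4 alone gave 25 and 1 (median 0.42). The size of that difference rested on replicate 5, in which the median member was 1.8 log2 units above the other UK-5099 libraries. By library totals alone without it, 12 were lower and 5 higher (median -0.15). Over all 10798 genes that setting gave 7623 lower and 1884 higher (median -0.66). NDUFS1 of complex I, for example, was at 114, 108, 119, 109 and 193 CPM with UK-5099 and 72.4, 73.9, 72.2, 70.3 and 71 CPM with the combination (log2 difference 0.84, but 0.07 with edgeR adjusted p = 0.175 by library totals alone without replicate 5). Of 26 tested mitochondrial carriers, 9 were higher with UK-5099 and 12 lower (median log2 difference -0.09), or 4 and 17 by library totals alone. In the fit without replicate 5 the counts were 11 and 13 (median -0.17). The phosphate carrier SLC25A3 (log2 difference 1.82, 1.32 without replicate 5) was higher with UK-5099, and the uncoupling protein gene UCP2 lower, at means of 0.122 and 1.28 CPM.

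Lipid genes separated by pathway. Among 27 tested PPAR-gamma responsive and lipid droplet genes, 10 were higher with UK-5099 and 11 lower (median log2 difference -0.07), or 7 and 16 by library totals alone. Without replicate 5 they numbered 12 and 14 (median -0.09). DGAT2, which completes triglyceride synthesis, was at 1.04, 1.03, 0.72, 0.496 and 0.549 CPM with UK-5099 and 46.8, 47.1, 53.4, 51.7 and 44.5 CPM with the combination (log2 difference -5.96, SE 0.162, edgeR adjusted p = 1.51e-18; -5.89 without replicate 5). Its mean with troglitazone alone was 65 CPM. The water and glycerol channel gene AQP3 had means of 0.941 and 26.5 CPM, with 1.25 CPM in troglitazone alone. In the opposite direction, lipoprotein lipase LPL measured 111, 92.7, 106, 95.7 and 78.8 CPM with UK-5099 and 7.66, 5.74, 3.99, 5.03 and 6.26 CPM with the combination (log2 difference 4.08, SE 0.139, edgeR adjusted p = 4.62e-17; 4.15 without replicate 5). The lipid droplet gene PLIN4 had 306 counts with UK-5099 and none with the combination, at least a 146-fold difference (at least 157-fold without replicate 5), although it overlaps HDGFL2. The fatty acid binding protein FABP4, a classical PPAR-gamma target, was at 0.711, 1.13, 0.463, 1.22 and 6.22 CPM with UK-5099 and 4.6, 4.4, 6.62, 3.68 and 4.82 CPM with the combination, with overlap only through replicate 5 (log2 difference -1.47, SE 0.479, edgeR adjusted p = 0.0129; -2.41 without replicate 5), and the call was lost with only these 10 libraries in the fit (-1.38, edgeR adjusted p = 0.0716). With troglitazone alone it averaged 38.2 CPM, and the combination was lower than troglitazone alone by -2.99 on the log2 scale (edgeR adjusted p = 3.77e-05). Fatty acid oxidation genes leaned to UK-5099: of 27 tested, 19 were higher with UK-5099 and 6 lower (median log2 difference 0.71), or 8 and 8 by library totals alone. Leaving out replicate 5 gave 20 and 7 (median 0.44). By library totals alone without replicate 5, 9 were higher and 14 lower. EHHADH (log2 difference 1.2) and CPT2 (0.9) were higher, and ACSL1 (-2.07) and the brain-type carnitine acyltransferase CPT1C (-2.16) lower.

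Cholesterol synthesis and uptake genes were higher with UK-5099 as a group: of 23 tested, 20 were higher with UK-5099 and 1 lower (median log2 difference 2.45), or 17 and 3 by library totals alone. The 4 other UK-5099 libraries gave 21 and 2 (median 1.53). MSMO1, a demethylase of the pathway, measured 252, 228, 252, 204 and 324 CPM with UK-5099 and 36, 31.4, 24.5, 23.5 and 28.1 CPM with the combination (log2 difference 3.13, SE 0.123, edgeR adjusted p = 4.05e-16; 3.03 without replicate 5). TM7SF2, a sterol reductase, stood at 204, 165, 194, 186 and 357 CPM and 13.1, 12.3, 12.8, 13.7 and 12.4 CPM (log2 difference 4.1, SE 0.179, edgeR adjusted p = 2.13e-15; 3.87 without replicate 5). All 5 UK-5099 libraries were above all combination libraries for both genes, and DHCR7 and HSD17B7 behaved alike, with log2 differences of 2.76 and 2.51. The sterol-sensing partner INSIG1 was at means of 480.5 ± 284 and 52.2 ± 12.4 CPM (log2 difference 3.2, 2.77 without replicate 5). The sterol carrier STARD4 was called in the other direction, with overlapping groups (log2 difference -0.41), a call that was lost without combination replicate 1 (-0.29, edgeR adjusted p = 0.0576). Of 20 tested fatty acid synthesis and desaturation genes, 12 were higher with UK-5099 and 4 lower (median log2 difference 0.69), or 6 and 6 by library totals alone. These counts became 14 and 5 without replicate 5 (median 0.62). The desaturase FADS2 was at 289, 238, 276, 268 and 107 CPM with UK-5099 and 18.8 to 26 CPM with the combination, and fatty acid synthase FASN at 1222, 1204, 1445, 1751 and 485 CPM and 213 to 284 CPM, with edgeR adjusted p values of 1.22e-13 and 2.09e-09. For both genes replicate 5 was the lowest UK-5099 library and still above every combination library. The elongase ELOVL4 was lower with UK-5099, at 0.749 against 9.84 CPM.

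Genes of the ATF4 and serine list were mostly higher with the combination. Of 33 tested genes of the integrated stress response and serine synthesis, 4 were higher with UK-5099 and 22 lower (median log2 difference -1.09), or 3 and 29 by library totals alone. With replicate 5 left out, 4 and 28 were called (median -1.34). ATF3, a transcription factor induced by that response, measured 7, 7.89, 7.71, 7.81 and 7.59 CPM with UK-5099 and 349.9, 259, 247, 235 and 266 CPM with the combination. Replicate 5 lay among the other UK-5099 libraries for this gene (log2 difference -5.16, SE 0.152, edgeR adjusted p = 3.71e-18; -5.15 without replicate 5), and its means in untreated cells and with troglitazone alone were 22.6 and 98.8 CPM. MTHFD2, of mitochondrial folate metabolism, was at 45.4 ± 6.65 and 252 ± 14.4 CPM, the tryptophan tRNA ligase WARS1 at 201 ± 19.8 and 739 ± 104 CPM, and the glycine transporter SLC6A9 at 50.4 ± 14.1 and 230 ± 16.6 CPM (SD, n = 5 each). Further members were CHAC1, which degrades glutathione (log2 difference -4.3), and the cystine transporter SLC7A11 (-3.64, -3.33 without replicate 5). SLC7A11 stood at 58.7, 119, 83.8, 81.3 and 2.74 CPM in UK-5099 replicates 1 to 5 and at 783 to 1007 CPM with the combination. STC2 (1.2) and the transsulfuration gene CBS (1.42) were higher with UK-5099 (1.31 and 1.16 without replicate 5). Of the serine synthesis enzymes, PHGDH was called lower with UK-5099 (-1.18, -1.38 without replicate 5). PSAT1 (0.07) and PSPH (0) were not called with all libraries (-0.24 and -0.39 without replicate 5). ATF4 itself was not called with all libraries (log2 difference -0.07, and -0.62 without replicate 5). Asparagine synthetase ASNS, a typical ATF4 target, had overlapping groups (175 and 204 CPM) and passed the test only without replicate 5 (log2 difference -0.22, edgeR adjusted p = 0.131 with all libraries, and -0.41, adjusted p = 1.67e-05 without it).

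**Figure D4:**
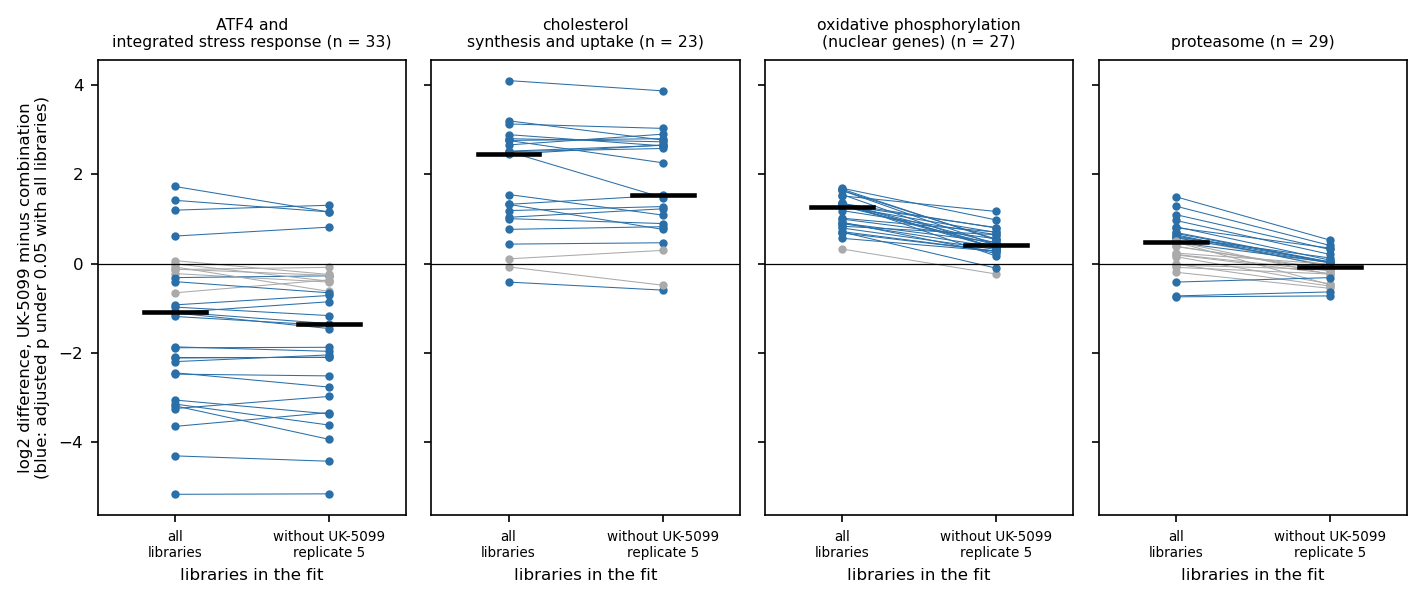
Log2 difference, UK-5099 minus the combination (y axis), of every tested member of 4 gene lists, with all libraries (left column of points) and without UK-5099 replicate 5 (right column); a line joins each gene, blue marks an adjusted p under 0.05 with all libraries and grey none, and the black bars are medians. The medians moved from -1.09 to -1.34 for ATF4 and serine genes, from 2.45 to 1.53 for cholesterol genes, from 1.28 to 0.42 for oxidative phosphorylation and from 0.49 to -0.07 for the proteasome.

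Unfolded protein response genes were split: of 24 tested, 7 were higher with UK-5099 and 11 lower (median log2 difference -0.25), or 4 and 15 by library totals alone. Replicates 1 to 4 alone gave 8 and 12 (median -0.23). The main chaperone of the endoplasmic reticulum, HSPA5, was higher with the combination, at 596, 639, 546, 528 and 1622 CPM with UK-5099 and 11933, 7623, 6728, 10150 and 7421 CPM with the combination (log2 difference -3.48, SE 0.254, edgeR adjusted p = 2.35e-11; -3.92 without replicate 5). Its mean with troglitazone alone was higher still, at 17952 CPM. DNAJB9 (log2 difference -2.32), HYOU1 (-1.72) and HERPUD1 (-2.27) had the same order of the 3 day-5 groups, with troglitazone-alone means of 261, 1835 and 1637 CPM. CREB3L1, a membrane-bound factor linked to collagen secretion, was higher with UK-5099 (172 and 56.1 CPM).

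Redox genes were divided: of 33 tested NRF2, glutathione and thioredoxin genes, 17 were higher with UK-5099 and 9 lower (median log2 difference 0.29), or 10 and 18 by library totals alone. In the fit without replicate 5 the counts were 18 and 12 (median 0.25). GCLC, which catalyses the limiting step of glutathione synthesis, measured 34.6, 35.6, 31.3, 32.1 and 22.2 CPM with UK-5099 and 271, 328, 372, 303 and 325 CPM with the combination (log2 difference -3.36, SE 0.106, edgeR adjusted p = 1.11e-17; -3.25 without replicate 5). Ferritin heavy chain FTH1 was at means of 2841 ± 539 and 14437 ± 756 CPM. Higher with UK-5099 were catalase CAT (log2 difference 1.01) and the peroxiredoxin PRDX4 of the endoplasmic reticulum (3.35, 2.85 without replicate 5). Among 16 tested genes of the aryl hydrocarbon receptor and xenobiotic list, 8 were higher with UK-5099 and 3 lower (median log2 difference 0.58), or 5 and 7 by library totals alone. Without replicate 5 they numbered 10 and 3 (median 0.58). CYP1A1, the classical target of that receptor, stood at 119, 189.8, 146, 112 and 175 CPM with UK-5099 and 8.31, 6.59, 5.54, 7.15 and 4.86 CPM with the combination (log2 difference 4.51, SE 0.233, edgeR adjusted p = 4.55e-14; 4.45 without replicate 5). Its means at day 0, after TGFb1 and with troglitazone alone were 7.65, 0.486 and 6.48 CPM. CYP1B1 followed, at 395, 454, 419.9, 497 and 62.5 CPM with UK-5099 and 32 to 42.6 CPM with the combination. The vitamin D hydroxylase CYP24A1 was among the 12 largest differences in the other direction, at no more than 0.109 CPM with UK-5099 and 19.3 to 28.3 CPM with the combination (log2 difference -8.29).

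Lysosomal genes were mostly higher with UK-5099: of 34 tested, 22 were higher with UK-5099 and 3 lower (median log2 difference 0.74), or 15 and 13 by library totals alone. Leaving out replicate 5 gave 24 and 6 (median 0.87). The hydrolases CTSA (log2 difference 1.55) and GLB1 (1.6) and the proton pump subunits ATP6AP1 (1.66) and ATP6V0D1 (1.4) were examples. The autophagy receptor SQSTM1 was the opposite, at 749.6, 952, 715, 713 and 1877 CPM with UK-5099 and 4249, 5909, 6884, 6482 and 5431 CPM with the combination (log2 difference -2.53, SE 0.204, edgeR adjusted p = 1.32e-10; -2.88 without replicate 5). So was the alternative pump subunit ATP6V0D2, which was listed near 0 at day 0 (0.0101 CPM) and averaged 3.49 CPM with UK-5099, 20.4 with the combination and 42.9 with troglitazone alone.

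Genes of growth factor signalling through Ras and ERK were higher with the combination: of 38 tested, 8 were higher with UK-5099 and 23 lower (median log2 difference -1.04), or 6 and 28 by library totals alone. The 4 other UK-5099 libraries gave 9 and 26 (median -1). The ERK phosphatase DUSP6 measured 3.28, 4.71, 3.55, 5.64 and 3.11 CPM with UK-5099 and 77, 95.7, 112, 70.4 and 95.4 CPM with the combination (log2 difference -4.46, SE 0.228, edgeR adjusted p = 3.9e-14; -4.37 without replicate 5). RASSF5 (log2 difference -5.89) and the feedback inhibitor SPRY4 (-3.97) went with it, while SPRY1 (3.16) and the exchange factor RASGRP1 (4.47) were higher with UK-5099. ARC, an immediate early gene best known from neurons, had 43 to 91.3 CPM with the combination and at most 0.226 CPM with UK-5099 (log2 difference -9.46). Growth factors and receptors as a list were even: of 42 tested, 18 were higher with UK-5099 and 16 lower (median log2 difference 0.28), or 16 and 19 by library totals alone. These counts became 21 and 15 without replicate 5 (median 0.32). The EGF receptor ligand EREG had no count with UK-5099 and 1088 with the combination, at least 253-fold higher there (at least 223-fold without replicate 5), and HBEGF, of the same family, was at 8.26, 5.64, 8.38, 7.22 and 6.4 CPM and 75, 52.3, 43.5, 33.2 and 75.3 CPM. IGF1 was the reverse, with 434 counts with UK-5099 and none with the combination, at least a 207-fold difference (at least 225-fold without replicate 5). The hepatocyte growth factor receptor MET (log2 difference 2.7), the VEGF receptor FLT1 (1.72) and IGFBP4 (4.4) were also higher with UK-5099. Their differences were 2.73, 1.73 and 4.09 without replicate 5. Of 28 tested Wnt genes, 12 were higher with UK-5099 and 9 lower (median log2 difference 0.43), or 7 and 12 by library totals alone. With replicate 5 left out, 13 and 10 were called (median 0.28). The inhibitor DKK2 was at 1141, 549, 904, 740.2 and 1259 CPM with UK-5099 and 41.1 to 53.1 CPM with the combination (log2 difference 4.29), and its day-0 and TGFb1 means were 1135 and 1204 CPM. The transcription factor TCF7 was the reverse (0.383, 0.735, 0.206, 0.496 and 0.549 against 38.1, 52.1, 59.1, 44.1 and 46.3 CPM; log2 difference -6.65). Of 19 tested hypoxia genes, 6 were higher with UK-5099 and 12 lower (median log2 difference -0.5), or 5 and 13 by library totals alone. Replicates 1 to 4 alone gave 7 and 12 (median -0.37). VEGFA measured 21.9, 20.7, 19.5, 24.1 and 4.67 CPM with UK-5099 and 205, 158, 153, 155 and 176 CPM with the combination, whereas HIF1A itself was at means of 2089 ± 299 and 322 ± 28 CPM (log2 differences -3.21 and 2.7).

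The 12 largest differences toward the combination, by the naming rule, contained genes seldom associated with fibroblasts. TEX14, a gene known for intercellular bridges of germ cells, stood at 1152, 2343, 2734, 2952 and 1796 CPM in the combination libraries and at 5.42, 6.81, 6.79, 6.14 and 4.39 CPM with UK-5099. No library of the other groups approached it, with means of 5.26 CPM at day 0, 7.84 after TGFb1 and 13.3 with troglitazone alone (log2 difference -8.53, SE 0.262, edgeR adjusted p = 6.64e-18; -8.44 without replicate 5). The neurofilament genes NEFM, at 250.3, 345, 317, 312 and 485 CPM against 0.711, 1.03, 1.29, 1.76 and 2.38 CPM with UK-5099, and NEFH, at 15.7 to 28 CPM against at most 0.147, shared that pattern, with troglitazone-alone means of 0.307 and 0.595 CPM. The imprinted gene PEG10 (0.865 and 181 CPM, 0.429 with troglitazone alone) and the neuropeptide gene GAL (0.399 and 57.6, 0.6) did so too. Each of these 5 genes was higher with the combination than with troglitazone alone, as were 22.8% of all genes in that test, which shares the combination libraries. Their log2 differences ran from 5.01 (NEFH) to 10.08 (NEFM).

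The gap junction gene GJB2 and the desmosomal gene PKP1 had intermediate troglitazone-alone means of 15.3 and 19.2 CPM. PKP1 measured 249, 243, 227, 218 and 219 CPM with the combination and 0.93, 0.343, 0.617, 0.632 and 0.0915 CPM with UK-5099 (log2 difference -8.7, SE 0.24, edgeR adjusted p = 1.51e-18; -8.52 without replicate 5). GPR137C had 4261 counts with the combination and 1 with UK-5099, a ratio of 2974 (95% counting interval 534 to 117504), and at least 873 without replicate 5, which held the count. The homeobox gene MSX1 had 1907 counts and 1 count, a ratio of 1331 (interval 239 to 52604). RSAD2, an interferon-induced antiviral gene, was different in that troglitazone alone also had it, at a mean of 20.5 CPM beside 21 CPM with the combination. It had 3 counts in the UK-5099 libraries and 2766 in the combination libraries, a ratio of 644 (interval 220 to 3123), and its log2 difference between the combination and troglitazone alone was 0.04 (edgeR adjusted p = 0.911).

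**Figure D5:**
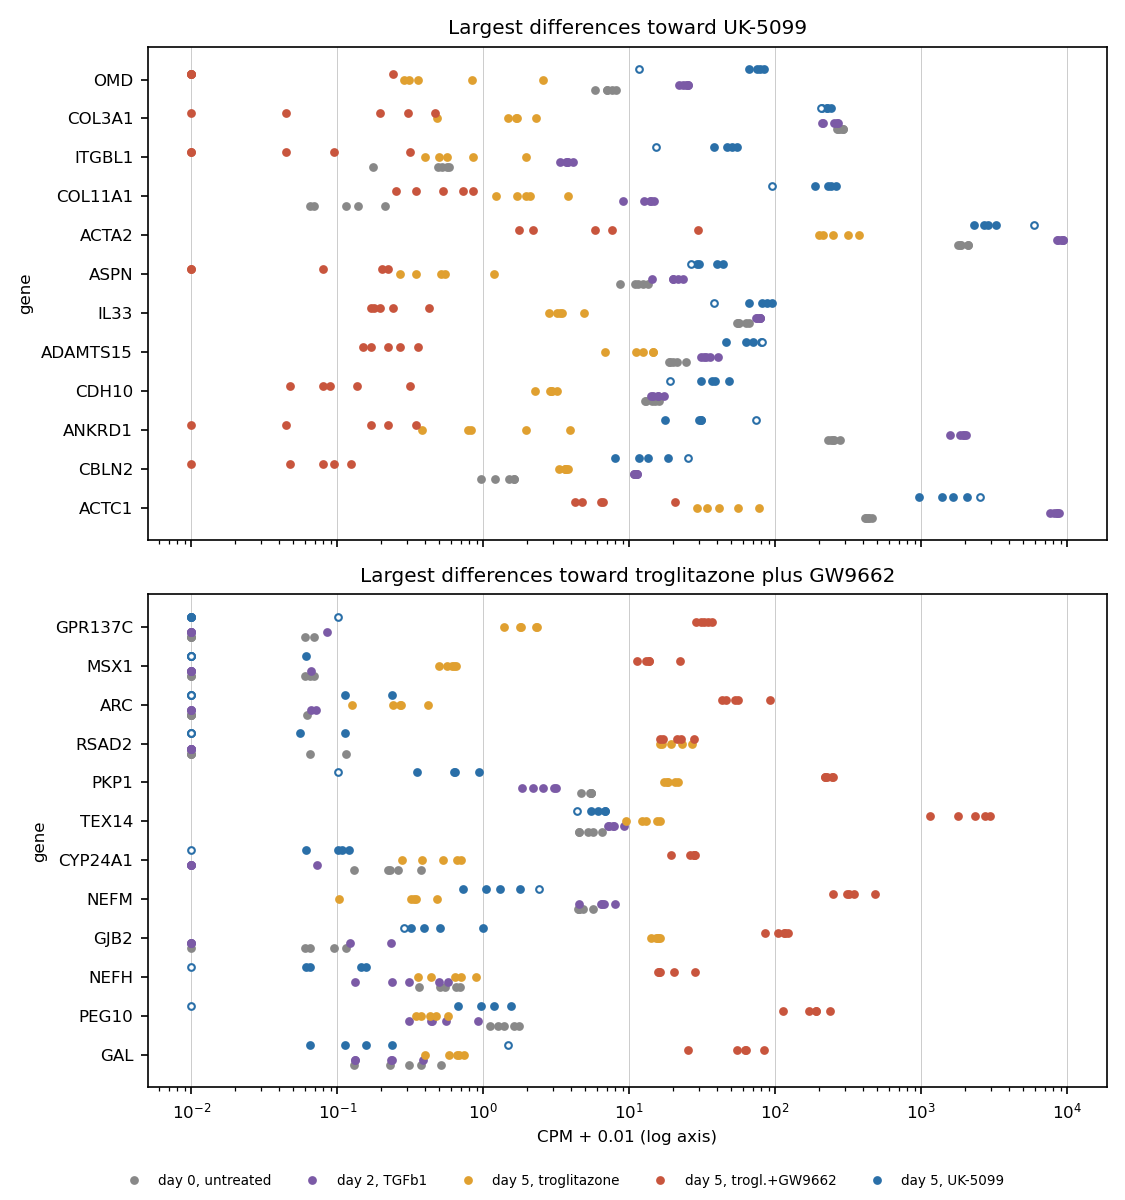
Levels in every library (x axis, TMM-scaled CPM on a log axis, with 0.01 added so that 0 can be drawn) of the 12 genes with the largest differences toward UK-5099 (upper panel) and toward the combination (lower panel), for all 5 groups (colours; UK-5099 replicate 5 is the open point). UK-5099 and combination points do not overlap for any of the 24 genes, as the naming rule required, and the troglitazone-alone points lie near the combination for RSAD2 and near UK-5099 for NEFM and PEG10.

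The genes with the largest differences toward UK-5099 were, besides the matrix, actin and ANKRD1 genes already given, ITGBL1, CDH10, CBLN2 and IL33. ITGBL1, an integrin-like secreted protein, measured 55.1, 38.1, 46.4, 50.6 and 15.3 CPM with UK-5099 and at most 0.306 CPM with the combination, and its day-0 mean was 0.457 CPM. The cadherin CDH10 was at 48.3, 31.2, 38.5, 36.8 and 18.8 CPM against at most 0.306 CPM, and the synaptic organiser CBLN2 at 18.4, 7.94, 13.4, 11.6 and 25.1 CPM against at most 0.115 CPM. Their log2 differences were 8.83, 8.08 and 7.82 (9.05, 8.24 and 7.58 without replicate 5). IL33, a nuclear alarmin, measured 80.9, 66.5, 94.4, 87.2 and 38.2 CPM with UK-5099 and 0.23, 0.185, 0.159, 0.417 and 0.169 CPM with the combination (log2 difference 8.25, SE 0.272, edgeR adjusted p = 2.25e-17; 8.41 without replicate 5), and 59.1 and 76.8 CPM were its means at day 0 and after TGFb1. In the neuronal list, of 29 tested genes, 14 were higher with UK-5099 and 9 lower (median log2 difference 0.53), or 10 and 12 by library totals alone. In the fit without replicate 5 the counts were 16 and 9 (median 0.42). The guidance cues SLIT3 (log2 difference 3.45) and SEMA3C (3.24) were among the higher genes, in contrast to the neurofilaments.

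Inflammatory and interferon genes were mixed. Of 26 tested cytokine and chemokine genes, 11 were higher with UK-5099 and 13 lower (median log2 difference -0.27), or 9 and 15 by library totals alone. Without replicate 5 they numbered 11 and 12 (median -0.19). PTGS2, the inducible cyclooxygenase, measured 9.85, 7.16, 9.87, 12.1 and 3.48 CPM with UK-5099 and 130.5, 92.8, 105, 99.1 and 141 CPM with the combination (log2 difference -3.73, SE 0.228, edgeR adjusted p = 9.49e-13; -3.54 without replicate 5), and IL11 and CXCR4 had log2 differences of -3.18 and -4.48. ACKR4, a scavenging chemokine receptor, was the reverse at 41, 38.1, 44.3, 40.9 and 45.5 CPM against at most 0.345 CPM, although it overlaps ACAD11. Of 27 tested interferon response genes, 6 were higher with UK-5099 and 13 lower (median log2 difference -0.4), or 2 and 20 by library totals alone. Leaving out replicate 5 gave 7 and 14 (median -0.32). IRF1 (log2 difference -2.42) and MX1 (-1.61) were higher with the combination, and IFI44 (1.95) and SAMHD1 (0.8, 0.18 and edgeR adjusted p = 0.115 with library totals alone) with UK-5099.

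Proliferation genes were mostly lower with UK-5099. Of 35 tested S phase genes, 4 were higher with UK-5099 and 21 lower (median log2 difference -0.45), or 3 and 29 by library totals alone. The 4 other UK-5099 libraries gave 5 and 22 (median -0.61). Of 36 tested G2 and mitosis genes, 6 were higher with UK-5099 and 23 lower (median log2 difference -1.31), or 2 and 27 by library totals alone. These counts became 6 and 24 without replicate 5 (median -1.4). CENPE, a kinetochore motor, was at 0.602, 0.294, 0.309, 0.181 and 0.366 CPM with UK-5099 and 5.36, 4.88, 5.82, 8.05 and 6.3 CPM with the combination, and its mean in day-0 cells was 22.3 CPM (log2 difference -4.13, SE 0.278, edgeR adjusted p = 5.44e-12; -4.15 without replicate 5). Cyclin CCNE2 measured 15.9 to 22.9 CPM with the combination and at most 0.274 CPM with UK-5099, and the ribonucleotide reductase subunit RRM2 had means of 0.485 and 4.95 CPM beside 85.8 at day 0. MCM3 (log2 difference 1.78), ECT2 (1.32) and AURKB (1.41) were exceptions, higher with UK-5099 (1.82, 1.47 and 0.97 without replicate 5). Of 21 tested cell cycle inhibitors and p53 targets, 5 were higher with UK-5099 and 11 lower (median log2 difference -0.64), or 4 and 15 by library totals alone. With replicate 5 left out, 5 and 13 were called (median -0.5). GADD45A was at 21.8, 28.7, 26.6, 33.5 and 81.8 CPM with UK-5099 and 260.2, 251, 263, 262 and 281 CPM with the combination, and PLK3 had a log2 difference of -3.53. LMNB1, a lamina gene whose loss marks senescence, was higher with UK-5099, at means of 50 ± 11.4 and 9.44 ± 0.615 CPM, with a TGFb1 mean of 179 CPM.

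Ribosome and proteasome genes stood high in UK-5099 replicate 5. Of 31 tested cytosolic ribosomal protein genes, 31 were higher with UK-5099 and 0 lower (median log2 difference 1.56), or 19 and 0 by library totals alone. Replicates 1 to 4 alone gave 31 and 0 (median 0.58). By library totals alone without replicate 5, 9 were higher and 5 lower (median 0), where the median over all genes was -0.66. RPL3, for example, measured 857, 821, 770.4, 788 and 2771 CPM with UK-5099 and 305, 227, 204, 227 and 261 CPM with the combination (log2 difference 2.29, SE 0.26, edgeR adjusted p = 4.61e-08; 1.73 without replicate 5), so it stayed higher in the 4 other libraries, by less. For mitochondrial ribosomal proteins, of 54 tested, 24 were higher with UK-5099 and 6 lower (median log2 difference 0.43), or 3 and 20 by library totals alone. In the fit without replicate 5 the counts were 15 and 22 (median -0.1). For the proteasome, of 29 tested, 13 were higher with UK-5099 and 3 lower (median log2 difference 0.49), or 1 and 11 by library totals alone. Without replicate 5 they numbered 6 and 13 (median -0.07). In both lists the direction with more calls turned when that library was left out. Over all tested genes that fit gave 36.9% higher and 44.5% lower (median -0.083). The medians of both lists then lay near that of all genes, so the turn is no result about these lists. PSMA3 stood at 118, 107, 113, 102 and 644 CPM with UK-5099 and 80.1, 78.3, 71.3, 71.6 and 80.8 CPM with the combination, and PSMD11 at 97.8, 91.8, 103, 87.5 and 67.9 and 157, 150.2, 145, 141 and 143 CPM (log2 differences 1.5 and -0.72, 0.53 and -0.63 without replicate 5). For PSMA3 the difference was -0.04 by library totals alone without replicate 5 (edgeR adjusted p = 0.484). The median member of the cytosolic ribosome, mitochondrial ribosome and proteasome lists lay 2.36, 1.89 and 1.73 log2 units above the other UK-5099 libraries in replicate 5, and 1.14 units below for collagens and 1.53 below for focal adhesion genes.

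Marker lists of other cell types were measured in the same libraries. The corneal epithelium list had 8 of 16 genes with a count, with 4 of the 10 genes present in the files at 0 in each group, and a summed level of 278 to 593 CPM with UK-5099 and 747 to 859 CPM with the combination. Of its 6 tested genes, 1 was higher with UK-5099 and 5 lower (median log2 difference -2.86), or 0 and 5 by library totals alone, and 0 and 5 without replicate 5 (median -3.1), with PKP1 and KLF4 (log2 differences -8.7 and -0.67) supplying most of the counts. PAX6, a defining gene of ocular surface epithelium, had 271 counts with the combination and 1 with UK-5099, a ratio of 189 (interval 33.7 to 7499). For the corneal endothelium list, with 14 of 15 genes counted, the summed level was 2474 to 4073 CPM with UK-5099 and 1840.3 to 1959 CPM with the combination, and of 14 tested genes, 8 were higher with UK-5099 and 4 lower (median log2 difference 0.92), or 7 and 4 by library totals alone. Leaving out replicate 5 gave 10 and 3 (median 0.78). The vascular list had 12 of 14 genes counted and summed to 144 to 295 CPM with UK-5099 and 123 to 144 CPM with the combination. Its member PECAM1 was at means of 0.101 and 1.96 CPM, and FLT1, in the opposite direction, at 106 and 32 CPM. Of the 7 tested genes of the vascular list, 3 were higher with UK-5099 and 2 lower (median log2 difference 0.02), or 2 and 2 by library totals alone, and 3 and 3 without replicate 5 (median -0.53), and without UK-5099 replicate 3 the split became 3 and 4. Immune genes summed to 29.8 to 59.1 CPM with UK-5099 and 36.3 to 41.1 CPM with the combination, with 10 of 16 counted and, of 5 tested, 2 were higher with UK-5099 and 0 lower (median log2 difference 0.39), or 0 and 2 by library totals alone. The 4 other UK-5099 libraries gave 2 and 1 (median 0.15). Melanocyte and Schwann genes summed to 3.39 to 23.1 CPM with UK-5099 and 15.3 to 17.4 CPM with the combination (7 of 12 counted; of 3 tested, 1 was higher with UK-5099 and 2 lower (median log2 difference -2.48), or 0 and 2 by library totals alone, and 1 and 2 without replicate 5 (median -2.29)). Adipocyte genes summed to 15.8 to 17.4 CPM with UK-5099 and 14.2 to 18.9 CPM with the combination (7 of 9 counted; of 4 tested, 1 was higher with UK-5099 and 2 lower (median log2 difference -0.88), or 0 and 3 by library totals alone, and 1 and 2 without replicate 5 (median -0.98)). The part of other cell types in the results above was not tested.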

How the data were processed

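RNA was measured by strand-specific poly(A) RNA-seq of 25 libraries, per the labels' protocols. The deposited values were whole-number counts per gene symbol, 1 file per library, as made by the authors. Tools listed without a role in the submitters' processing notes were Salmon 1.5.2, featureCounts, Subread 2.0.1, STAR 2.7.9a and fastp 0.23.1. Genome build, annotation and the strand setting of counting are not given in the sources used here. Spans of ACKR4, ANGPTL7, ASPN, CCN1, CXCR4, FTH1, GLB1, HSD17B7, HSPA5, LAMA4, MPC2, OGN, OMD, PLIN4, RASSF5, SAMHD1, SLC16A3, SLC6A9, SQSTM1 and WARS1 overlap another counted protein-coding gene in NCBI's table for assembly F.catus_Fca126_mat1.0, so their values are uncertain.

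Counts were fitted with edgeR 4.0.16 (quasi-likelihood test, TMM factors, filterByExpr with a minimum count of 10) in R 4.3.3 over all 25 libraries with 1 term per group, then over 24 without UK-5099 replicate 5. Adjustment followed Benjamini and Hochberg over all tested genes. CPM values are relative to the TMM-scaled library size, and correlations between libraries used log2 CPM with a prior count of 2. Genes were named by rule: ACTA2, COL1A1, MPC1, MPC2 and PPARG, the 12 largest changes each way with at least 10 CPM and no overlap, and, in each of 42 gene lists, the called members of lowest p, to which further list members were added. Some genes of these lists are not reported here. The gene lists and members were chosen with earlier results of these data known. Alternatives were DESeq2 1.42.0, limma 3.58.1 (voom), other scalings and filters, fits of 2 groups, left-out libraries and a replicate block. Fits without replicate 5 under RLE or upper quartile factors were chosen after seeing the data. Counting intervals and floors take in counting error alone. The fitting script was tested on simulated data.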

Additional observations from a re-analysis of the deposited data

Results flagged for a closer look

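Among the named genes (ATF4, PHGDH, PSAT1 and PSPH aside) and the measures of whole libraries, 1 library of a group was looked for whose gap to the nearest of the other 4, divided by the group's whole range, was above Dixon's 95% critical value. Chance flags about 1 in 20 groups, and 336 groups (168 genes in 2 groups) were looked at beside those measures. That rate does not hold for a group with 0 in 4 libraries, which any count in the remaining library flags. UK-5099 replicate 5 accounted for 49 of the 74 results found, and over all 10699 tested genes it was such a library for 52.7%, against at most 2.99% for any of the other 9 libraries. It was above the other UK-5099 libraries at 5958 CPM for ACTA2, 74.1 for ANKRD1, 383 for ATP6AP1, 38.9 for AURKB, 1876 for CAVIN1, 27.7 for CBS, 128 for DLD, 1556 for EFEMP2, 6.22 for FABP4, 81.8 for GADD45A, 1.46 for GAL, 702 for GLB1, 0.0915 for GPR137C, 379 for HERPUD1, 1622 for HSPA5, 294 for HYOU1, 5.95 for ID2, 3328 for IGFBP4, 4.76 for IL11, 985 for INSIG1, 589 for KLF4, 1585 for LDHA, 6716 for LUM, 82 for ME3, 75.8 for MPC1, 266 for MPC2, 193 for NDUFS1, 455 for P3H2, 793 for PRDX4, 644 for PSMA3, 2771 for RPL3, 2313 for SLC25A3, 48385 for SPARC, 623 for SPP1, 1877 for SQSTM1, 35 for STARD4, 2232 for TIMP2, 357 for TM7SF2 and 7183 for TPM1. It was below them at 13.9 CPM for ACSL1, 265 for CTSA, 62.5 for CYP1B1, 107 for FADS2, 11691 for FN1, 4.21 for IFI44, 149 for LAMA4, 11.6 for OMD, 408 for SEMA3C and 4.67 for VEGFA.

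Combination replicate 1 was below the other libraries of its group at 158 CPM for ADAMTS1, 20.8 for ADAMTS4, 19.3 for CYP24A1 and 3.26 for RRM2. Combination replicate 1 was above the other libraries of its group at 29.5 CPM for ACTA2, 20.5 for ACTC1, 133 for AMOTL1, 349.9 for ATF3, 0.306 for ITGBL1, 83.5 for LAMA4, 0.23 for OMD, 41.1 for STARD4 and 919.9 for WARS1. Combination replicate 3 was above the other libraries of its group at 7828 CPM for SPP1. Combination replicate 4 was below the other libraries of its group at 4.48 CPM for EREG and 23.2 for PLK3. Combination replicate 4 was above the other libraries of its group at 0.417 CPM for IL33. Combination replicate 5 was above the other libraries of its group at 91.3 CPM for ARC, 96.9 for ID2 and 22.2 for MSX1. UK-5099 replicate 1 was above the other libraries of its group at 1732 CPM for SERPINH1. UK-5099 replicate 2 was above the other libraries of its group at 33.7 CPM for DNAJB9. UK-5099 replicate 3 was above the other libraries of its group at 0.0514 CPM for MSX1. UK-5099 replicate 4 was above the other libraries of its group at 0.0451 CPM for PAX6. The UK-5099 flags for MSX1, PAX6 and GPR137C rest on 1 count each beside libraries at 0, so they carry no weight. OMD in combination replicate 1 was also set against libraries at 0. The 10 most abundant genes took 9.35% of the counts in combination replicate 1, against 8.19% to 8.49% in the other combination libraries.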

How the results depend on the processing

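UK-5099 replicate 5 and the scaling were the choices that mattered most. Under each alternative the count of genes that differed between UK-5099 and the combination stayed within 1.5 times 7277. The lowest count came from the fit of only the 2 groups compared, with 5360 of 10442 genes changed, 2733 higher and 2627 lower. Without replicate 5 that fit gave 8419 of 10568. Leaving out single libraries gave 6978 to 8796 changed genes, 3384 to 3986 higher and 3594 to 4810 lower, with the highest of each reached without UK-5099 replicate 5. Library totals alone gave 1669 higher and 6528 lower, and 1884 and 7623 without replicate 5. For the combination against troglitazone alone (4620 genes), left-out libraries gave 4176 to 7735, the highest again without UK-5099 replicate 5, which enters that test only through the shared spread. Fits of those groups alone gave 7312 genes, and fits without replicate 5 gave 7801 with library totals alone, 7715 with RLE factors, 7709 with upper quartile factors and 7683 with the replicate block.

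Same-numbered UK-5099 and combination libraries showed no strong shared deviation (r = 0.117, -0.034, -0.096, -0.008 and 0.116). These values cannot decide whether same-numbered libraries came from a shared culture or donor, which the labels do not give. The replicate block gave 7115 changed genes, 3345 higher and 3770 lower, in place of 7277, and 8741 without replicate 5.

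Of 168 tested genes named in the text (ATF4, PHGDH, PSAT1 and PSPH aside), 156 kept their direction and their side of the threshold under each of the 24 alternatives run on them. LDHA, which was not called, had log2 differences from -0.14 (without UK-5099 replicate 5) to 0.1 when single libraries were left out, -0.04 with upper quartile factors and -0.61 with library totals alone. Without replicate 5 it was -0.72 with library totals alone, -0.09 in the fit of 2 groups, -0.12 with RLE factors, -0.2 with upper quartile factors and -0.15 with the replicate block. MPC2 was -0.02 and PSMA3 -0.04 with library totals alone without replicate 5. Depth limits what can be said of genes with 0 to 3 counts in a group, for which folds are bounds or carry wide intervals.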
